A study of Mus musculus with 18 samples.

Results

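A group of 56 circular RNAs (circRNAs) had a higher m6A methylation level in mouse cortex 3 days after a stroke than in sham-operated mice and than 7 days after it. They were selected on these same measured values. A circRNA qualified if its level on every array of day 3 lay above its level on every array of the other groups, which 222 of 9305 circRNAs did (2.39%). The qualifying circRNAs were then ordered by a score, the smaller of the mean log2 differences between day 3 and sham and between day 3 and day 7. The 60 highest scores were taken and 4 of them were left out, so that 56 of 9305 circRNAs remained. The higher level at day 3 is therefore how the circRNAs were chosen and not a result.

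C57BL/6J mice aged 10 weeks had a permanent occlusion of the distal middle cerebral artery (MCAO) on the left side, followed by a brief occlusion of both common carotid arteries. Cortex around the infarct was collected 3 days (3d group) or 7 days (7d group) later. Mice of the sham group went through the steps of this operation except the MCAO. Each group had 3 replicates, labeled as biological replicates, and each replicate gave 1 array, so that there were 9 arrays. On each array the RNA bound by an anti-m6A antibody (IP, Cy5) and the RNA left in the supernatant (Sup, Cy3) were hybridized together after RNase R had digested linear RNA.

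CircRNAs are closed RNA loops made by back-splicing, in which the end of an exon is joined to the start of the same or an earlier exon, and they are abundant in neurons. N6-methyladenosine (m6A) is a methyl mark on adenosine that methyltransferases such as METTL3 with METTL14 add, FTO and ALKBH5 remove, and proteins with a YTH domain bind. On circRNAs the mark is known to take part in nuclear export, decay and cap-independent translation.

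The methylation level of a circRNA was its IP signal as a percentage of the sum of its IP and Sup signals, both scaled on spike-in RNA. A change of this percentage can come from the IP signal, from the Sup signal or from both. The sum of both signals was taken as expression, as in the methods of the study. On all 9 arrays, both channels were well above background for every one of the 9305 circRNAs, the 56 included. Median intensities of the circRNA spots ranged from 36.5 to 50 over the IP channels of the arrays, above median backgrounds of 15 to 22, and from 53 to 78.5 over the Sup channels, above median backgrounds of 15.5 to 18. No circRNA spot was saturated, and precision is limited by how many arrays there were.

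The median level of the 56 circRNAs was 9.40%, 7.33% and 6.67% on the sham arrays. It was 13.6%, 12.4% and 13.0% on the 3d arrays and 7.22%, 8.28% and 6.85% on the 7d arrays. With the deposited scaling, all circRNAs together moved the other way. Their array medians were 40.3%, 37.9% and 31.4% in sham, 29.0%, 30.9% and 24.5% in 3d and 40.0%, 37.4% and 37.7% in 7d. The choice fixed the higher level of the 56 circRNAs at 3d, so this contrast with all circRNAs is a description only. On each array the median of the 56 circRNAs was below that of all circRNAs. As log2 values, the median difference of 3d from sham was 0.69 (range 0.55 to 1.40), against -0.34 over all circRNAs, of which 18.6% had a positive difference. The median difference of 3d from 7d was 0.72 (range 0.55 to 1.03), against -0.39 over all circRNAs, with 17% positive.

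**Figure D1:**
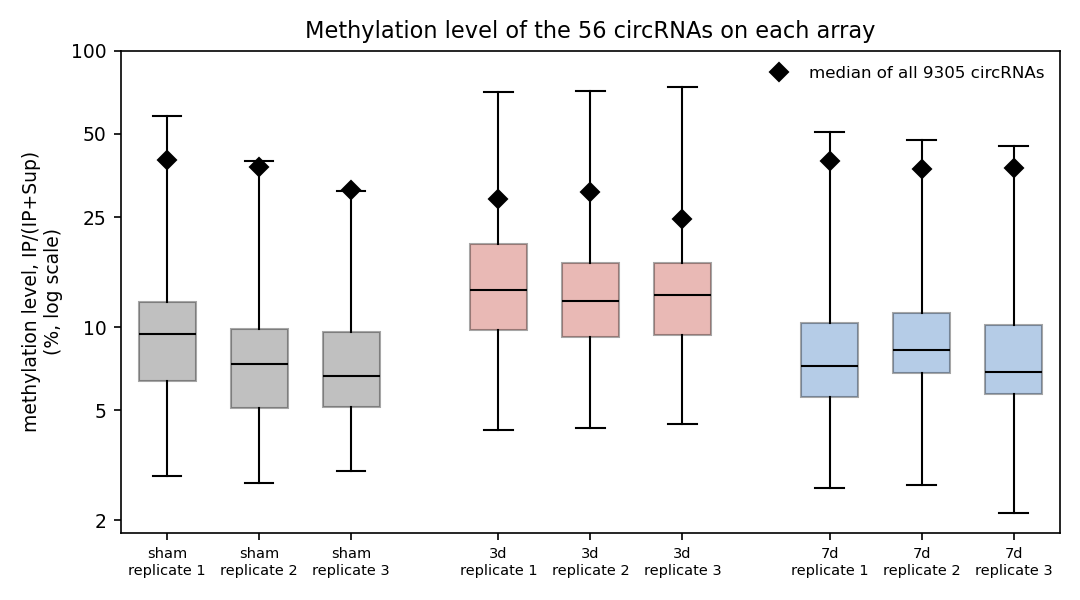
Methylation level (%, log scale) of the 56 circRNAs on each of the 9 arrays, with boxes from the lower to the upper quartile, a line at the median, whiskers to the lowest and the highest circRNA and a diamond at the median of all 9305 circRNAs. The medians of the 56 circRNAs lie between 12.4% and 13.6% on the 3d arrays and between 6.67% and 9.40% on the others, while the diamonds are lowest on the 3d arrays.

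The lower level of all circRNAs at 3d depends on how the arrays are scaled. With all spike-in probes as the scale, the median difference of all circRNAs was 0.17 between 3d and sham and 0.14 between 3d and 7d, and with within-array loess it was -0.02 and -0.01. Relative to the median of all circRNAs, the median of the 56 circRNAs was higher at 3d by 1.03 than in sham and by 1.1 than in 7d with the deposited scaling. Over the 5 other scalings and background corrections the same relative differences were between 0.57 and 1.18 for sham and between 0.58 and 1.28 for 7d.

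The files name the probes by identifiers, and 5 of the 56 circRNAs could be given a name and a host gene, as described with the processing. One of them comes from Calm3, which encodes calmodulin, the calcium sensor that regulates many kinases and channels of neurons. This circRNA (mmu_circRNA_19450, probe ASCRP4013892, sense overlapping) had levels of 10.2%, 5.69% and 8.84% in sham, 17.7%, 16.4% and 14.1% in 3d and 7.24%, 10.3% and 6.73% in 7d. The lowest 3d array lay above the highest other array by 0.45 on the log2 scale, and the sham and 7d arrays overlapped. Its score of 1.00 was the second highest of the whole order. Its IP signal was 0.57 higher in 3d than in sham and its Sup signal differed by -0.55.

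A circRNA of Clasp1 (mmu_circRNA_20673, probe ASCRP4006309, exonic) had a weaker array signal than most of the group. CLASP1 binds the plus ends of microtubules and stabilizes them. The levels of this circRNA were 19.2%, 17.9% and 17.5% in sham, 38.5%, 35.8% and 31.3% in 3d and 22.0%, 29.6% and 20.4% in 7d. The 3 sham arrays were close together, and each 7d array lay above each sham array and below each 3d array. The difference of 3d from sham was in the IP signal, with log2 values of -5.89, -6.46 and -6.35 in sham and -4.66, -4.80 and -5.53 in 3d. The Sup signal was nearly the same, with means of -4.06 ± 0.23 in sham and -4.11 ± 0.24 in 3d (SD, n = 3).

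A circRNA assigned to Rn45s, the gene of the 45S ribosomal RNA precursor (mmu_circRNA_000807, probe ASCRP4006342, sense overlapping), had levels of 7.08%, 5.07% and 6.10% in sham, 13.5%, 9.24% and 16.4% in 3d and 6.08%, 7.04% and 8.50% in 7d. The 3d arrays differed among themselves by more than the arrays of the other groups did, and the lowest of them was 0.12 above the highest other array on the log2 scale. Its Sup signal had log2 values of 7.34, 7.40 and 6.82 in 3d, each below all 3 values of sham (7.80, 7.63 and 7.51) and of 7d (7.58, 7.57 and 7.58).

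A circRNA from an intron of Cmss1 (mmu_circRNA_005252, probe ASCRP4004008) had levels of 12.3%, 7.64% and 7.90% in sham, 19.7%, 14.9% and 21.5% in 3d and 10.2%, 11.2% and 10.7% in 7d. Its IP values were 4.92, 4.44 and 4.60 in 3d, above 4.27, 3.44 and 3.31 in sham and 3.90, 4.06 and 4.20 in 7d on the log2 scale, and those of sham and 7d overlapped. The Sup values of 3d (6.95, 6.96 and 6.47) overlapped those of sham (7.11, 7.04 and 6.85) and lay below those of 7d (7.05, 7.04 and 7.27).

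The last named circRNA (mmu_circRNA_20066, probe ASCRP4007838, sense overlapping), listed under the transcript DQ715306, had levels of 7.34%, 4.98% and 5.58% in sham, 14.6%, 10.5% and 13.0% in 3d and 6.24%, 6.96% and 7.74% in 7d. Its IP signal was as high in 7d (1.34 ± 0.41) as in 3d (1.36 ± 0.50), against 0.46 ± 0.33 in sham (log2, SD, n = 3). What set 3d apart from 7d was the Sup signal, 4.15 ± 0.52 in 3d and 5.08 ± 0.27 in 7d.

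Of the gene lists set up for this tissue, that for microtubules and the cytoskeleton held 1 of the named circRNAs, Clasp1, which was 1 of its 14 genes. It had 1 named probe among all tested circRNAs. The lists of m6A writers, erasers and readers, glutamate receptors, endosome and vesicle traffic, known brain circRNAs and the markers of cell types had 0 named probes among all tested circRNAs, so nothing could be counted in them. Those of the presynaptic active zone and the postsynaptic density had 1 and 2 named probes. All of these were among the 4 circRNAs left out, so that none could be among the 56. With 51 of the 56 circRNAs unnamed, these lists do not describe the group. The tissue label could not be checked against marker genes, because none of the tested probes was named by a gene of the marker lists.

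The unnamed circRNAs with high scores are given by probe. ASCRP4006710 had the largest difference of 3d from sham, with levels of 10.2%, 5.90% and 6.20% in sham, 21.0%, 13.4% and 24.4% in 3d and 8.07%, 10.8% and 11.5% in 7d. ASCRP4012684 had levels of 5.93%, 4.55% and 4.06% in sham, 12.2%, 8.95% and 15.6% in 3d and 6.59%, 7.23% and 6.90% in 7d. In both, the IP signal of each 3d array lay above and the Sup signal below all arrays of sham and 7d. Their 3d levels followed the same order over the replicates as those of the circRNAs of Rn45s and Cmss1, with replicate 3 highest and replicate 2 lowest.

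In ASCRP4001255 the order of the 3d replicates was another, with levels of 21.2%, 16.5% and 10.6%, and the last of these was close to the highest sham array at 10.4%. ASCRP4003297 had the same order, with 16.7%, 12.0% and 8.99% in 3d and 8.70% on the highest sham array. ASCRP4012777 had 31.9%, 31.5% and 20.0% in 3d, against 17.5%, 12.2% and 15.2% in sham and 13.3%, 17.4% and 14.4% in 7d. In ASCRP4013772 all levels were low, with 4.95%, 3.65% and 3.28% in sham, 6.33%, 7.50% and 8.86% in 3d and 4.25%, 5.51% and 3.22% in 7d. Over the group, replicate 1 was the highest of the 3d arrays in 21 circRNAs, replicate 2 in 12 and replicate 3 in 23, and replicate 3 was also the lowest in 26. The make-up of the list leaned on this last array: without 3d replicate 3, 13 of the 56 circRNAs were among the 60 highest scores, and without sham replicate 1 it was 36.

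The distance between the lowest 3d array and the highest other array had a median of 0.258 on the log2 scale. It was smallest in ASCRP4005158 at 0.014, where the 3d levels of 14.0%, 19.7% and 17.9% stood against a highest sham level of 13.9%. It was largest in ASCRP4012834 at 0.506, with 7.05%, 7.16% and 7.70% in 3d and at most 4.96% on the other arrays. These 2 circRNAs were picked after their values were seen. At the limit of the list, the last 2 circRNAs inside were ASCRP4012212 and ASCRP4000745, both with a score of 0.552. The first 2 outside were ASCRP4009137 with 0.552 and ASCRP4011804 with 0.547, so that the limit separates nearly equal values.

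Levels within the group ranged widely. In ASCRP4011502 they were 58.3%, 39.0% and 29.4% in sham, 70.7%, 71.4% and 73.9% in 3d and 50.7%, 47.6% and 45.2% in 7d, the highest mean sham level of the group. The 3 sham arrays of this circRNA spread far apart, while its 3d arrays were close. ASCRP4013042 had the lowest mean sham level, with 2.89%, 2.73% and 3.10% in sham, 5.10%, 4.30% and 7.23% in 3d and 2.77%, 3.34% and 3.80% in 7d. It was also the only one of the 56 circRNAs with a spot marked as an outlier by the scanner software, on 1 array.

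Most of the group had a low level in sham. The mean sham level was under 10% in 41 of the 56 circRNAs and in 4.07% of all circRNAs, and over 50% in 0 of the 56 and in 18.5% of all. The sham level is part of the rule, and a percentage that is already high can rise less on the log2 scale. The choice itself thus favours low sham levels, and these shares are a description only. The spots of the group were also bright, with a median at the 94.5th percentile of summed signal. The circRNAs that met the day 3 criterion made up 12.4% of the brightest decile of spots, 6.77% of the next, 2.58% of the one after it and at most 0.645% of each of the 7 lower deciles. Of the 56 circRNAs, 40 were in the brightest decile and 1, the circRNA of Clasp1, was in the 5 lower deciles. Signals of different probes depend on the probe as well as on the RNA, so these places describe spots and not amounts of RNA, and the part of brightness in the choice was not tested.

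**Figure D2:**
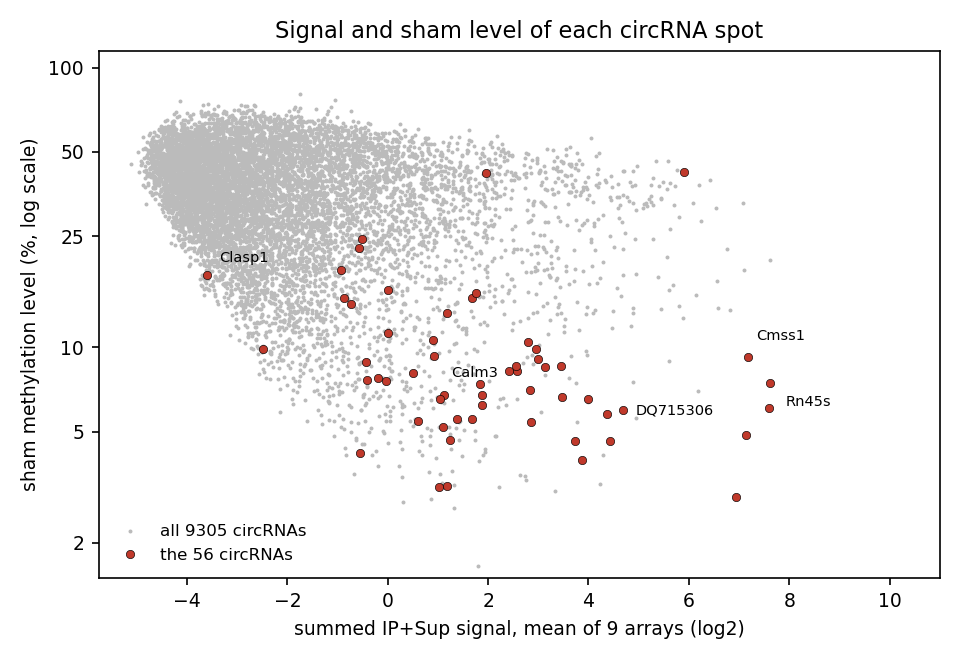
Mean sham methylation level (%, log scale) against the summed IP and Sup signal (log2, mean of 9 arrays) of each circRNA, with the 56 circRNAs in red, the named ones marked with their host gene and all 9305 in grey. Of the red points, 41 lie under 10% and 40 are in the brightest decile of spots, and the circRNA of Clasp1 lies farthest to the left.

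The level at 3d can be high because more of the circRNA was bound by the antibody or because less of it was left unbound. Both signals entered the rule, so their values are given as a description. The mean Sup signal of 3d was below those of both other groups in 50 of the 56 circRNAs and in 9% of all. The mean IP signal of 3d was above both in 32 of the 56 and in 27.5% of all. Both held for 26 circRNAs (2.1% of all), the lower Sup signal alone for 24 and the higher IP signal alone for 6. These counts join both contrasts and those with sham depended on the background correction. With normexp and an offset of 50, the IP signal was above sham in 51 of the 56 circRNAs and the Sup signal below it in 39, and without offset in 50 and 45. With all spike-in probes the IP signal was above sham in 54 and above 7d in 42. The IP signal of all circRNAs was also higher in these settings. Its median difference from sham was 0.14 and 0.19 with normexp offsets of 50 and 0 and 0.17 with all spike-in probes. From 7d it was 0.07 with all spike-in probes. The median Sup difference of all circRNAs from sham was 0.20 and 0.22 with the 2 normexp offsets. These counts are therefore a description only. The classes rest on the signs of mean differences, some of which are close to 0.

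Against sham, the IP signal of the group was higher at 3d by a median of 0.50, and in 48 of 56 circRNAs. Over all circRNAs the median was -0.05, with 45.7% higher. The median difference of the Sup signal from sham was -0.44 (51 of 56 lower). Over all circRNAs the Sup signal was 0.44 higher, and 14.5% had a lower one. Against 7d, the median difference of the IP signal was 0.09, with 32 of 56 circRNAs higher. Over all circRNAs it was -0.09, with 40.2% higher. The median difference of the Sup signal from 7d was -0.81, with 53 of 56 lower. Over all circRNAs the Sup signal was 0.57 higher than in 7d, and 17.9% had a lower one. With 1 array left out, the median differences from sham ran from 0.25 to 0.72 in IP and from -0.21 to -0.56 in Sup, and that of Sup from 7d from -0.56 to -0.92. The small IP difference from 7d ran from -0.10 (without 3d replicate 1) to 0.32 (without 3d replicate 3), so that its sign depended on the arrays. It was 0.24 with all spike-in probes, beside 0.07 over all circRNAs.

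The sum of both signals was lower at 3d than in sham in 48 of the 56 circRNAs, with a median of -0.24, and lower than in 7d in 49, with a median of -0.61. The medians over all circRNAs were 0.25 and 0.29, and 23.6% and 22.3% of all had a lower sum. With 1 array left out, the medians of the group ran from -0.09 to -0.42 and from -0.40 to -0.75. With normexp and an offset of 50 the sum was lower than in sham in 33 of the 56 circRNAs (median -0.16) and lower than in 7d in 45 (median -0.30), and without offset in 39 (-0.28) and 42 (-0.29). Over all circRNAs the medians were 0.17 from sham and -0.02 from 7d with the offset, and 0.19 and 0.04 without it. In tissue samples of this kind, fewer cells of a type and less of a circRNA per cell cannot be told apart. Under the 5 other scalings and background corrections, the median Sup difference of the group stayed negative, between -0.26 and -1.04 against sham and between -0.41 and -1.52 against 7d, as it did relative to the median of all circRNAs.

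Single circRNAs show the 2 patterns. In ASCRP4005674 the Sup signal had log2 values of -0.52, -0.95 and -1.54 in sham, -1.81, -1.76 and -2.41 in 3d and -0.45, -1.03 and 0.16 in 7d. Its IP signal was no higher at 3d than in the other groups (-3.29, -3.18 and -4.38, against -2.74, -3.69 and -4.12 in sham). Its level nevertheless went from 17.7%, 13.1% and 14.3% in sham to 26.5%, 27.2% and 20.3% in 3d. In ASCRP4005038 both signals were lower at 3d than in sham, the IP signal by a mean difference of -0.80 and the Sup signal by -1.53.

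The opposite pattern was seen in ASCRP4007660, where the IP signal was 1.33, 0.40 and 0.67 in 3d, against -0.02, -1.25 and 0.02 in sham and -1.40, -0.39 and -1.95 in 7d. Its mean Sup signal was higher too, by 0.25 than in sham and by 0.95 than in 7d. The Sup values of 3d (4.27, 3.42 and 3.54) lay above all values of 7d, but sham replicate 3 (4.37) lay above all values of 3d. ASCRP4005099 was alike in its means, with an IP signal higher by 1.30 and 1.32 and a Sup signal higher by 0.45 and 0.38 than in sham and 7d. Its Sup values of 3d overlapped those of both groups. The other 4 circRNAs with the higher IP signal alone were ASCRP4007302, ASCRP4005922, ASCRP4009159 and ASCRP4003149. The circRNAs named for these patterns, other than those with high scores, were chosen after their values were seen.

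**Figure D3:**
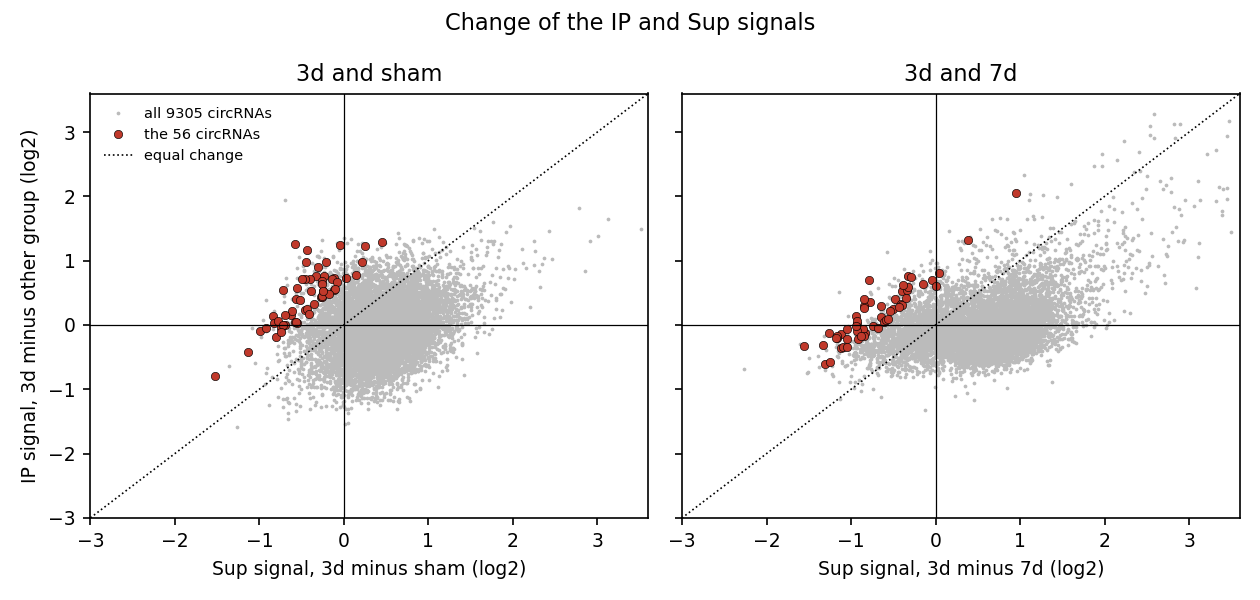
Mean difference of the IP signal against that of the Sup signal (both log2), 3d minus sham on the left and 3d minus 7d on the right, with the 56 circRNAs in red, all 9305 in grey and a dotted line where both signals change equally. The red points lie above the dotted line by the way they were chosen, and 51 (left) and 53 (right) of the 56 lie left of 0, where the Sup signal was lower at 3d.

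For reference, the counts over the contrasts that chose the group are given beside those over all circRNAs, with calls made where the fold change passed 1.5 and the unadjusted p of limma was below 0.05. The level was called higher in 3d than in sham in 48 of the 56 circRNAs (1.42% of all) and higher than in 7d in 52 (1.92% of all). The IP signal was called higher in 16 (4.06% of all) and in 8 (5.72% of all), and the Sup signal lower in 13 (0.634% of all) and in 30 (3.21% of all). Expression was called lower than in sham in 8 circRNAs (0.903% of all) and lower than in 7d in 23 (2.56% of all). Each 3d array lay above all other arrays in the IP signal of 6 circRNAs (2.19% of all). Each lay below all others in the Sup signal of 12 circRNAs (0.516% of all) and in the expression of 8 (0.516% of all). The fit took the arrays as unpaired. Nothing is read from these counts, since the circRNAs were selected on the same arrays.

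To see the level on arrays that had no part in a round's own choice, the rule was applied to 2 replicates of each group. The arrays of the remaining replicate number were then read. Each round chose its own 60 circRNAs, while the group described above was chosen on all arrays, so the rounds do not test that group. With replicate 1 held out, the 3d array was the highest of the 3 in 53 of the 60 circRNAs chosen (88.3%) and in 11.3% of all. With replicate 2 held out it was the highest in 60 of 60 (100%) and in 16.9% of all, and with replicate 3 held out in 45 of 60 (75%) and in 11.1% of all. The criterion was met mostly by bright spots, so the 2 shares may differ in brightness as well, and its part was not tested. With normexp and no offset the round of replicate 3 gave 18.3%, beside 5.39% of all. Deviations of sham and 3d arrays of the same number correlated at 0.37, 0.11 and 0.37 in the level, so a round that holds out 1 number may hold out arrays that go together.

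The median score of the chosen circRNAs was 0.72, 0.66 and 0.78 on the arrays that chose them in the 3 rounds. The median difference of 3d from sham in the chosen circRNAs was 0.44, 0.77 and 0.59 on the held-out arrays of replicates 1, 2 and 3, against -0.40, -0.26 and -0.34 over all circRNAs. Against 7d it was 0.77, 0.50 and 0.52, with -0.39, -0.22 and -0.54 over all. Of the 60 circRNAs chosen in a round, 33, 42 and 20 belonged to the 56. Over the 27 combinations of 1 held-out array per group, the median share was 86.7% (range 28.3% to 100%), beside a median of 14% over all circRNAs (range 6.61% to 22.8%). Held-out arrays come from the same scans as the others, and the lowest shares show that some combinations of arrays gave much weaker separation.

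**Figure D4:**
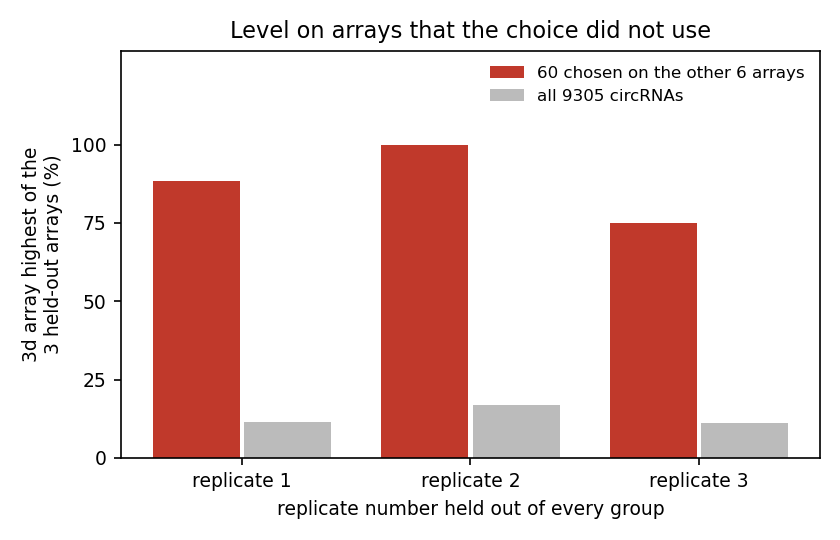
Share (%) of circRNAs whose 3d array had the highest level of the 3 held-out arrays, for each replicate number held out, with the 60 circRNAs chosen on the other 6 arrays in red and all 9305 in grey. The red bars stand at 88.3%, 100% and 75%, and the grey bars at 11.3%, 16.9% and 11.1%.

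The comparison of 7d with sham is not free of the choice either. Both groups had to lie under 3d, and the score takes the smaller of 2 differences whose gap is 7d minus sham, which favours circRNAs with like levels in both. The values of the level are therefore a description and do not show whether the circRNAs had returned to the sham level. The median difference of the level was -0.01 (range -0.37 to 0.53), against 0.04 over all circRNAs, with 24 of 56 circRNAs higher (61.2% of all) and 32 lower (38.8% of all) in 7d. With limma, 0 of the 56 circRNAs were called higher (0.656% of all) and 0 lower (0.548% of all). At an unadjusted p below 0.05 and without the fold limit there were 2 higher (2.49% of all) and 3 lower (2.89% of all), and after Benjamini-Hochberg adjustment none of the 9305 was called. A missed threshold does not show that the levels were equal.

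The 2 circRNAs with a higher level in 7d at that p were those of Clasp1 (difference 0.38, SE 0.16, adjusted p = 0.891 in limma) and ASCRP4012684 (difference 0.53, SE 0.21, adjusted p = 0.891 in limma). In both, each of the 3 arrays of 7d was above each of the 3 arrays of sham. The 3 lower ones were ASCRP4010648 (difference -0.37, adjusted p = 0.873 in limma), ASCRP4004538 (difference -0.33, adjusted p = 0.891 in limma) and ASCRP4000194 (difference -0.31, adjusted p = 0.891 in limma). The first of them had 3.23%, 2.85% and 3.48% in sham and 2.61%, 2.68% and 2.12% in 7d, so that its 7d arrays lay under the sham arrays without overlap.

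The choice of arrays moved these counts. Without sham replicate 1, whose members' median level was the highest of the sham arrays, 2 circRNAs were called higher in 7d, ASCRP4006710 (difference 0.73, adjusted p = 0.328 in limma) and ASCRP4012684 (difference 0.68, adjusted p = 0.316 in limma). In that setting 436 of the 9305 circRNAs were called in either direction, against 112 with all arrays. With normexp and no offset, the circRNA of Clasp1 was called higher (difference 0.76, adjusted p = 0.362 in limma), where 479 of all were called and the median difference of all was 0.22.

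With the deposited values, both signals of most of the group were higher in 7d than in sham. The median differences were 0.32 for IP (44 of 56 circRNAs higher, 47.9% of all), 0.31 for Sup (45 of 56, 43.6% of all) and 0.31 for expression (45 of 56, 45.2% of all), against -0.02, -0.07 and -0.05 over all circRNAs. The background correction moved the values over all circRNAs more than those of the group in IP. The median IP difference of the group was 0.30 and 0.22 with normexp offsets of 50 and 0, and that of all circRNAs 0.35 and 0.39. In Sup it was 0.14 and 0.006 for the group and 0.09 and 0.006 for all. Relative to the median of all circRNAs, the group was higher by 0.34 in IP and 0.38 in Sup with the deposited values, and by -0.06 and 0.05 with normexp and an offset of 50. Without offset it was -0.17 in IP and 0 in Sup.

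In the IP signal, 5 of the 56 circRNAs were called higher in 7d (4.02% of all) and 0 lower (7.38% of all, and 0 of the 56 at an unadjusted p below 0.05 in limma, beside 16.1% of all). In the Sup signal 4 were called higher (4.86% of all) and 1 lower (11.1% of all). In expression 5 were called higher (4.16% of all) and 1 lower (8.87% of all). With normexp and an offset of 50, 1 was called higher and 2 lower in expression, 1 and 1 in Sup and 3 and 0 in IP. Without offset it was 0 and 1 in expression, 0 and 1 in Sup and 2 and 0 in IP. Over all circRNAs, 424, 491 and 695 were called with that offset and 1262, 1368 and 1311 without it. The called circRNAs of the group are few, and nothing particular to the group is read from them. With the deposited values and adjustment over all 9305 circRNAs, 1 call remained in IP, 1 in expression and 0 in Sup, beside 198, 256 and 44 over all. Without sham replicate 1, 19 circRNAs were called in IP, 12 in expression and 11 in Sup. The calls over all 9305 circRNAs went up as well, to 1422, 1718 and 2075 from 1061, 1212 and 1488. Without 7d replicate 1 the counts of the group were 9, 10 and 10 (1312, 1449 and 1633 over all), and without 7d replicate 3 they were 3 in each (884, 951 and 1236). Without 7d replicate 2 that of Sup was 8 (1329 over all).

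The circRNA of DQ715306 was among the higher calls in all of these signals. Its IP signal had log2 values of 0.84, 0.33 and 0.21 in sham and 1.05, 1.16 and 1.82 in 7d (difference 0.89, SE 0.30, adjusted p = 0.124 in limma). Its Sup signal was higher by 0.63 (adjusted p = 0.176 in limma) and its expression by 0.65 (adjusted p = 0.134 in limma). All 3 arrays of 7d lay above all 3 of sham in each signal, while its level differed by 0.24 (adjusted p = 0.898 in limma).

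ASCRP4005922 had expression values of 2.74, 2.88 and 2.64 in sham and 3.49, 3.35 and 3.99 in 7d (difference 0.86, SE 0.19, adjusted p = 0.0431 in limma). ASCRP4006395 had IP values of -0.57, -1.02 and -1.17 in sham and -0.18, 0.02 and -0.09 in 7d (difference 0.84, SE 0.18, adjusted p = 0.0499 in limma). These were the calls that remained after adjustment, and in both the 7d arrays lay above all sham arrays. With the methods' t-test and the same adjustment, 0 calls of the group remained in expression and 0 in IP. With normexp and no offset, 0 circRNAs of the group were called higher in expression before adjustment. Before adjustment and with the deposited values, ASCRP4005922 was also called higher in IP (0.86) and Sup (0.86), and ASCRP4006395 in Sup (0.70) and expression (0.70). The other circRNAs called higher were ASCRP4006752 in IP (0.64), ASCRP4009159 in IP (0.63) and expression (0.59), and ASCRP4007961 in Sup (0.62) and expression (0.61). ASCRP4003652 was the one circRNA called lower, in Sup (-0.66, adjusted p = 0.144 in limma) and in expression (-0.64, adjusted p = 0.112 in limma), while its level was 15.7% ± 5.29 in sham and 16.4% ± 2.23 in 7d (SD, n = 3).

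The scanner files show that the 3d and 7d arrays were scanned together as 1 slide image and the sham arrays in another scan. The differences of 3d from 7d given above are therefore within 1 scan. In it the 3d arrays were all in 1 row of the slide and the 7d arrays all in the other, so that day and row cannot be told apart. Sham and scan cannot be told apart, which holds for each difference from sham, of 3d as well as of 7d. The spike-in constant of the Sup channel, which is subtracted from each log2 signal, was 12.55, 12.45 and 12.12 on the 3d arrays, below 12.95, 12.84 and 12.52 on the sham arrays of the same numbers and below 13.06, 12.98 and 12.84 on the 7d arrays. A smaller constant leaves a higher Sup value for all circRNAs of an array, the 56 included, and its part in the lower level of all circRNAs at 3d was not tested.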

How the data were processed

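The authors deposited scanner intensity values of both channels (Agilent Feature Extraction 11.0.1.1). Their deposited table holds log2 processed signals minus a spike-in constant per channel and array. Recomputed with 10 of the 102 spike-in probes, the table differed by at most 5.57e-10. These values were used, for the 9305 of 12251 tabulated circRNA probes well above background in both channels on all 9 arrays. The level was log2(IP/(IP+Sup)), and expression log2(IP+Sup). All 9 arrays were fitted with limma 3.58.1 (lmFit, eBayes) in R 4.3.3, with jsonlite 2.0.0, and calls required both a fold change above 1.5 and p below 0.05 before adjustment. Figures were drawn with Python 3.11.15, matplotlib 3.10.9, pandas 2.3.3 and numpy 2.4.6. Group means and SDs of levels are of percentages, and differences are of mean log2 values. The steps were tested on simulated data.

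The circRNAs and the gene lists were chosen with earlier results of these data known. Names were given to probes whose P, computed as in the methods, matched the one listed under a name in the study within a relative 1e-04, with a fold change above 1.5 in the listed direction, which 52 of 60 entries did with 1 probe each. The text names the circRNAs with such a name, the 10 highest scores, the last 2 inside and first 2 outside the limit, those called in 7d vs. sham, the highest and lowest sham level, the 3 brightest, and others where it says so. Replicate numbers are those of the titles. The descriptions of 7d replicates 2 and 3 and sham replicate 3 give other numbers, which leaves the groups unchanged but bears on the replicate block, the correlations of same-numbered arrays and the held-out rounds. Alternatives were other scalings, background corrections, filters, tests and thresholds, and leaving out each array.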

Additional observations from a re-analysis of the deposited data

How the results depend on the processing

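All 56 circRNAs had a higher mean level in 3d than in sham and 7d under the deposited values, array centering, all spike-in probes, normexp with offsets of 50 and 0, within-array loess, both wider filters and log2(IP/Sup). In all of these the 3d arrays lay above all others for 56 of 56 circRNAs, except 33 with the normexp offset of 50 and 40 without offset. Among all circRNAs 2.39% met that criterion with the deposited values and with log2(IP/Sup), 15.8% with array centering and 28.2% with all spike-in probes. It was 12.8% with loess and 1.03% and 1.36% with normexp offsets of 50 and 0. With the filter on at least 3 of 9 arrays it was 2.01%, and with no filter 1.98%.

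The choice of the circRNAs fixed this direction, and the wider filters and log2(IP/Sup) leave the order of a circRNA's values as it was, so these counts do not show that it is stable. Of the 56 circRNAs, 35 were among the 60 highest scores with array centering, 37 with all spike-in probes, 28 and 26 with normexp offsets of 50 and 0 and 31 with loess. With 1 array left out it was between 13 (without 3d replicate 3) and 51, and 36 without sham replicate 1; a rule over fewer arrays is looser by construction. The mean share of held-out picks was 87.8%, beside 13.1% of all circRNAs. It was 68.3% with normexp without offset (22.3% of all), where the rounds gave 90%, 96.7% and 18.3%, beside 27.2%, 34.4% and 5.39% of all. With centering it was 96.7% (44% of all) and with all spike-in probes 98.9% (58.1% of all).

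The median Sup difference of 3d from sham was -0.86 with centering, -1.04 with all spike-in probes and -0.80 with loess. With 1 array left out it ran from -0.21 (without 3d replicate 3) to -0.56, that of IP from 0.25 (without sham replicate 3) to 0.72, and that of expression from -0.09 (without 3d replicate 3) to -0.42. From 7d the Sup difference was -1.35, -1.52 and -1.33, and -0.42 and -0.41 with normexp offsets of 50 and 0. Expression differed from sham by -0.24 with the deposited values, by -0.69 with all spike-in probes and by -0.16 and -0.28 with normexp offsets of 50 and 0. From 7d it differed by -0.61, -1.14, -0.30 and -0.29. The causes were not tested.

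In 7d vs. sham, the level was called in 1 circRNA with normexp without offset, and in 0 to 2 with 1 array left out. Expression was called in 6 circRNAs, with 10 after centering, 3 and 1 with normexp offsets of 50 and 0, 1 after adjustment and 3 to 12 with 1 array left out. Of these, 5 were higher and 1 lower with the deposited values, 9 and 1 after centering, 1 and 2 with normexp at 50 and 0 and 1 without offset. IP was called in 5, with 3 and 2 for normexp, 11 with loess, 1 after adjustment and 3 to 19 with 1 array left out. Sup was called in 5, with 11 after centering, 2 and 1 for normexp, 0 after adjustment and 3 to 11 with 1 array left out. The methods' t-test gave 0, 6, 5 and 5 for level, expression, IP and Sup, and 0 in each after Benjamini-Hochberg adjustment. Over all circRNAs, the calls in this order were 112, 1212, 1061 and 1488 with the deposited values. They were 479, 1262, 1311 and 1368 for normexp without offset and 436, 1718, 1422 and 2075 without sham replicate 1. Centering gave 1220 in expression and 1482 in Sup, and loess 1059 in IP.

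With the replicate number as a replicate block, the 7d vs. sham counts of the 56 stayed at 0, 6, 5 and 5. Over all they were 128, 1215, 1081 and 1515. Deviations of same-numbered arrays of sham and 7d correlated at -0.15, -0.12 and -0.06 in the level and at -0.51, -0.37 and -0.50 in expression. Those of sham and 3d correlated at 0.37, 0.11 and 0.37 in the level, each the highest for its own number, and at 0.46, 0.14 and 0.43 in expression. The calls of 3d vs. sham were not fitted with the block, and the held-out rounds use the numbers, while the 27 combinations do not. Each group has 3 arrays, sham lies in a scan of its own, and the median circRNA spot was only a few times as bright as its background.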
